A study of Rattus norvegicus with 16 samples.

Results

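Btg2 (ENSRNOG00000003300) and Zfp36 (ENSRNOG00000058388) are 2 of the 32883 genes counted in the nucleus basalis of Meynert of stressed and control rats, and both are early response genes whose proteins act on the decay of messenger RNA. They were chosen by their measured difference between stressed and control rats, so the levels and fold changes with stress are given as a description. Neurons of the nucleus basalis, in the basal forebrain, supply the cortex with acetylcholine, and the study asked how stress bears on attention and this cholinergic system. The groups were stressed females, control females, stressed males and control males, with 4 bulk RNA libraries each and 16 in all. The strain was Long Evans, the genotype ChAT::Cre and the age at least 70 days in every group, so the controls carried the same Cre allele as the stressed rats. The name of the line points to cells that express choline acetyltransferase, the acetylcholine-making enzyme, as the site of Cre. The labels name the group only as stress, with no further detail on the procedure.

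Btg2 encodes a small protein of the BTG and TOB family. It is known to bind the catalytic subunits of the main cytoplasmic deadenylase, the CCR4-NOT complex, and to speed the shortening of poly(A) tails, and it is also known as an antiproliferative gene induced by growth factors, neuronal activity and p53. Zfp36 encodes tristetraprolin, a zinc finger protein that binds AU-rich elements of short-lived messages, such as those of cytokines, and brings the same deadenylase to them. Both messages are themselves made quickly and decay quickly, as is usual for early response genes.

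On Rnor_6.0 both genes are short and have 2 annotated exons. Btg2 lies on the reverse strand of chromosome 13, from 50913180 to 50916982, with exons of 244 and 2318 bases. Zfp36 lies on the forward strand of chromosome 1, from 85380088 to 85382569, with exons of 82 and 1730 bases. No other annotated gene overlaps either of them. RefSeq places genes of both names on the same chromosomes of the newer build GRCr8, with spans of 3760 and 2481 bases, against 3803 and 2482 bases in the annotation of the counts.

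The promoter windows are shown because both genes are early response genes and stood higher with stress. Each holds 250 bases before and 50 after the start of the gene, from RefSeq on GRCr8, 5′ to 3′ on the strand of the gene. Btg2 is at chr13:48087641-48087940 and Zfp36 at chr1:92799059-92799358, both on the reverse strand of that build. Capitals mark matches to the motifs searched.
Btg2: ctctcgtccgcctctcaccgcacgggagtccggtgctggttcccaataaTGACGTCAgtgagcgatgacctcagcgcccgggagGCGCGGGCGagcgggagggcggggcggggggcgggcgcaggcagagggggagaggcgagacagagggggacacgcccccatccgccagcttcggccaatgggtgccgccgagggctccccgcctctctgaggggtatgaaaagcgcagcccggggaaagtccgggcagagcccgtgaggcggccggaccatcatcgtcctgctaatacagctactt
Zfp36: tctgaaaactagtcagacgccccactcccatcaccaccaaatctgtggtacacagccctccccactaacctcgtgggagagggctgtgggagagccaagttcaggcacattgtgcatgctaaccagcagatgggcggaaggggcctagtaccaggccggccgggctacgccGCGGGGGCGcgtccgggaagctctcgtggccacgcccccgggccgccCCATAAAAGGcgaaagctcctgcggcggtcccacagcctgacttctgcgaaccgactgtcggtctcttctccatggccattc

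Both strands were searched for 6 motifs. The Btg2 window holds the palindromic cAMP response element TGACGTCA, at positions -201 to -194 from the start, a motif present in 1.91% of the 27457 RefSeq promoter windows of that length. It contains the shorter form TGACG on both strands, which 22.0% of the windows hold. The Btg2 window also holds 1 match to the Egr motif GCGNGGGCG, at positions -166 to -158. Zfp36 has 1 match to the same Egr motif, at positions -79 to -71, and 5.29% of the windows hold one. The Zfp36 window also holds a CArG box, the core of the serum response element, at positions -32 to -23, a motif found in 1.64% of the windows. The AP-1 motif TGANTCA, in 7.33% of the windows, and the glucocorticoid receptor half-site TGTTCT, in 20.1%, matched in neither. A full glucocorticoid response element was not among the motifs searched, and bases outside the windows were not searched. A match describes letters in these windows, and binding was not measured here. GC content was 69.7% in the Btg2 window and 63.7% in the Zfp36 window, against a median of 52.3% over all windows. It was lower in 90.7% and 80.1% of the windows. The shares above were not matched for GC content, so they may understate how common the GC-rich Egr motif is in such windows.

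Library totals were 22.7 to 73.8 M counts, of which mitochondrial genes took 64.2% to 82.5%, leaving 5.86 to 22.6 M nuclear counts. The count tool differed between libraries. Male stress 1, female control 4 and male control 4 were counted with featureCounts, each mate of a pair on its own, and had 63.1 to 73.8 M counts, against 22.7 to 38.2 M in the 13 libraries counted with HTSeq. Y-linked genes gave 8.28 to 11.4 counts per M nuclear counts in females and 281 to 326 in males, so all 16 libraries matched their labelled sex. Markers of cholinergic neurons and of other cell types were not checked, because the identifiers in the files could not be paired with gene names. In bulk RNA a change in the number of cells of a type and a change in the RNA per cell cannot be told apart.

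Btg2 was a low-count gene. It had 117, 108, 86 and 92 counts in stressed females against 28, 21, 21 and 158 in control females. The 158 counts belong to female control 4, a featureCounts library with 22.6 M nuclear counts. In males it had 194, 88, 82 and 45 counts with stress against 30, 7, 23 and 28 in controls, the 194 and the last 28 from featureCounts. Counting error alone gave an exact 95% Poisson interval of 2.81 to 14.4 around the 7 counts of male control 2. Such intervals cover counting error only.

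Scaled to the library with TMM factors, Btg2 had 3.49, 3.11, 2.36 and 2.78 counts per M counts (CPM) in stressed females, against 1.02, 0.872, 0.670 and 1.79 CPM in control females. The mean was 2.94 ± 0.48 CPM in stressed and 1.09 ± 0.49 CPM in control females (SD, n = 4 each), a log2 fold change of 1.37 (SE 0.31), or 2.58-fold. All stressed females lay above all control females, a pattern shown by 1.72% of the 14241 genes tested, but female control 4 stood well above the other controls. Without that library the log2 fold change was 1.78 (SE 0.33).

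In males Btg2 had 3.67, 2.64, 2.33 and 1.85 CPM with stress, against 0.902, 0.222, 0.541 and 0.484 CPM in controls. The mean was 2.62 ± 0.77 CPM in stressed and 0.537 ± 0.28 CPM in control males (SD, n = 4 each), with a log2 fold change of 2.30 (SE 0.33), or 4.91-fold. The lowest stressed male had about as much as the highest control female, and every stressed library of either sex lay above every control library. Of all genes tested, 2.96% had every stressed male above every control male, and 0.112% had every stressed library of either sex above every control. The highest stressed male, male stress 1, was counted with featureCounts, and without it the log2 fold change was 2.08 (SE 0.35).

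Zfp36 was more abundant and less variable. Stressed females had 9.67, 11.6, 8.32 and 9.51 CPM, against 4.97, 5.48, 4.63 and 5.10 CPM in control females. The means were 9.78 ± 1.4 and 5.05 ± 0.35 CPM (SD, n = 4 each), and the log2 fold change was 0.96 (SE 0.14), or 1.94-fold. Female stress 2 was the highest of the 16 libraries, the 4 control females lay close together, and the groups did not overlap. Every stressed female lay above every control female in 1.72% of the 14241 genes tested.

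Stressed males had 9.29, 9.32, 7.73 and 8.62 CPM of Zfp36, against 4.33, 3.97, 5.65 and 4.39 CPM in control males. The means were 8.74 ± 0.75 and 4.58 ± 0.73 CPM (SD, n = 4 each), with a log2 fold change of 0.93 (SE 0.14), or 1.90-fold. Again the groups did not overlap, and the lowest of the 8 stressed libraries, at 7.73 CPM, stood clear of the highest of the 8 controls, at 5.65 CPM. Of all genes tested, 2.96% had every stressed male above every control male. For all stressed above all control libraries the share was 0.112%, and Zfp36 was chosen for its difference with stress. The fold changes of Zfp36 in females and males were nearly the same.

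**Figure D1:**
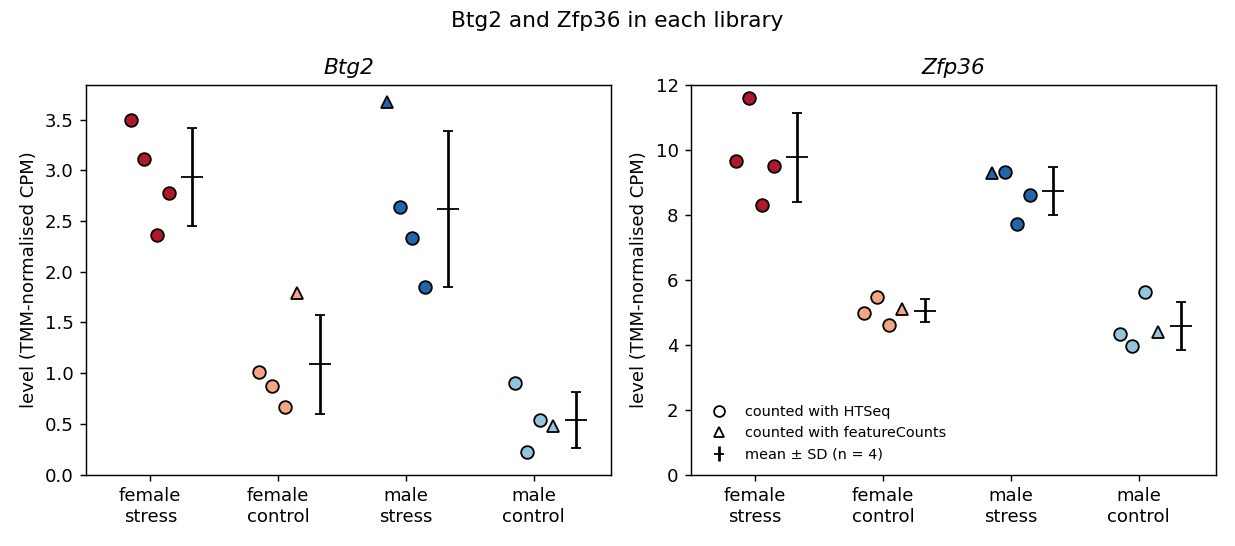
Level of Btg2 (left) and Zfp36 (right) in TMM-normalised CPM for each of the 16 libraries by group. Circles are HTSeq libraries, triangles featureCounts libraries, and the bar is the mean ± SD of 4. All stressed libraries lie above all controls for both genes, as for 0.112% of all genes tested. The Btg2 triangle of the female controls, at 1.79 CPM, lies far above the other 3.

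By edgeR's quasi-likelihood test at an adjusted p under 0.05, 1 of the 2 genes, Zfp36, was called for stress in females, where 0.0632% of the 14241 genes tested were called. Both were called in males, where 0.119% of all genes were, and both on average over the sexes, where 0.337% were. The choice of the 2 genes used these contrasts, so nothing is read from the number called or not overlapping. The same holds for their ranks among all genes, which are given as a description. On average over the sexes the log2 fold change was 1.83 (SE 0.23) for Btg2 and 0.94 (SE 0.10) for Zfp36, beside a median of 0.0071 over all genes tested. Only 6 of the genes tested had a larger average log2 fold change than Btg2, whereas 100 had a larger one than Zfp36. In rank by p, Zfp36 stood at 3 and Btg2 at 7. Zfp36 was not called in males without the featureCounts libraries, where its log2 fold change was 0.87 (SE 0.17), and Btg2 was called in females without them, at 1.78 (SE 0.32).

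The spread among libraries of a group differed between the genes. The biological coefficient of variation, from edgeR's gene-wise dispersion estimates, was 0.280 for Btg2 and 0.137 for Zfp36, against a median of 0.186 over all genes tested. The coefficient of variation of Btg2 was 16.4% in stressed and 45.0% in control females, and 29.4% in stressed and 52.1% in control males. In the HTSeq libraries alone it was 20.4% in the 3 control females, so the value for that group rested on female control 4. In males it was then 17.5% in the 3 stressed and 61.2% in the 3 control libraries. For Zfp36 it was 14.0% in stressed and 7.02% in control females, and 8.55% in stressed and 15.9% in control males. Counting error weighs more on Btg2, since 31.8% of the genes tested had a lower mean CPM than Btg2 and 60.5% a lower one than Zfp36.

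Per length, Zfp36 was the more abundant gene in each library. Its level was 5.40 ± 0.76 CPM per kb of exon in stressed and 2.78 ± 0.20 in control females, and among males 4.82 ± 0.41 with stress and 2.53 ± 0.40 in controls (SD, n = 4 each). Btg2 had 1.15 ± 0.19 CPM per kb in stressed and 0.424 ± 0.19 in control females, and among males 1.02 ± 0.30 with stress and 0.210 ± 0.11 in controls. Zfp36 thus exceeded Btg2 by 3.92 to 5.29 times in stressed and 4.04 to 9.76 times in control females. In males the ratio was 3.58 to 6.60 with stress and 6.79 to 25.2 in controls.

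The ratio of the raw counts within a library does not depend on its depth or scaling. For every 100 counts of Zfp36 there were 36.1, 26.7, 28.4 and 29.2 counts of Btg2 in stressed females, against 20.4, 15.9, 14.5 and 35.0 in control females. In stressed males there were 39.5, 28.3, 30.1 and 21.4, against 20.8, 5.60, 9.58 and 11.0 in control males. The groups did not overlap in males, and in females only female control 4, at 35.0, lay within the range of the stressed libraries. This restates the larger fold change of Btg2, in 2 genes chosen for their difference with stress. The share of other gene pairs with such a ratio was not computed. In control males the ratio rests on 7 to 30 counts of Btg2. The mean was 30.1 ± 4.1 in stressed females and 29.9 ± 7.5 in stressed males, values that lie close together, against 21.5 ± 9.4 in control females and 11.8 ± 6.5 in control males (SD, n = 4 each).

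**Figure D2:**
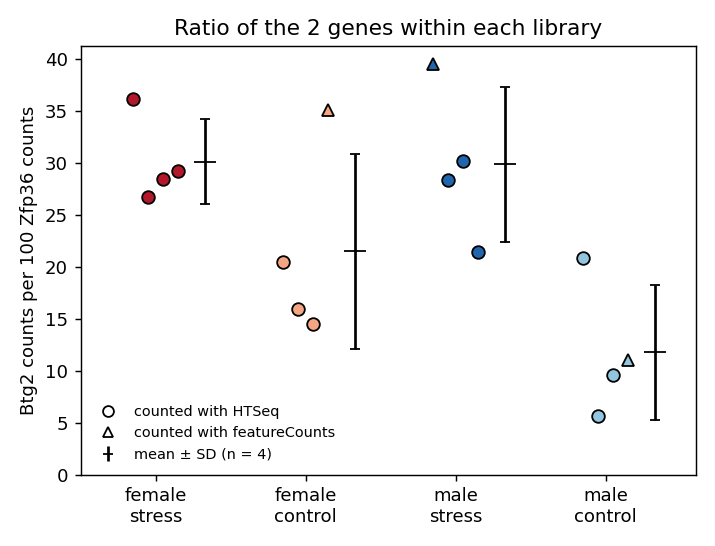
Btg2 counts per 100 Zfp36 counts in each library, by group, with circles for HTSeq, triangles for featureCounts and bars for the mean ± SD of 4. Stressed libraries sit between 21.4 and 39.5, and control libraries between 5.60 and 20.8 apart from female control 4 at 35.0.

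Comparisons between the sexes were not themselves used to choose the genes. They share their libraries with the stress contrasts that were, so they are not independent of the choice. In controls Btg2 averaged 1.09 ± 0.49 CPM in females and 0.537 ± 0.28 CPM in males (SD, n = 4 each), a log2 fold change of 1.08 (SE 0.34, 95% interval 0.37 to 1.78). It did not pass edgeR's test (adjusted p = 0.595), in a comparison where 0.112% of all genes did, and the groups overlapped. Without female control 4 the log2 fold change was 0.66 (adjusted p = 1.0). In stressed rats Btg2 was at 2.94 ± 0.48 CPM in females and 2.62 ± 0.77 CPM in males, with a log2 fold change of 0.15 (SE 0.30, 95% interval -0.46 to 0.76, adjusted p = 0.980), where 0.0913% of all genes were called.

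In controls Zfp36 averaged 5.05 ± 0.35 CPM in females and 4.58 ± 0.73 CPM in males (SD, n = 4 each, log2 fold change 0.13, SE 0.14, 95% interval -0.16 to 0.43, edgeR adjusted p = 0.925). In stressed rats it averaged 9.78 ± 1.4 CPM in females and 8.74 ± 0.75 CPM in males (log2 fold change 0.16, SE 0.14, 95% interval -0.13 to 0.45, edgeR adjusted p = 0.924). The ranges of the sexes overlapped in both conditions, and neither gene was called for a difference between females and males.

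The stress effect of Zfp36 differed between females and males by a log2 value of 0.03 (SE 0.20, 95% interval -0.39 to 0.44, edgeR adjusted p = 1.0). For Btg2 the difference, female minus male, was -0.93 (SE 0.45, 95% interval -1.86 to 0.0032, edgeR adjusted p = 1.0). In this contrast edgeR called 0% of all genes, though 571 had an unadjusted p under 0.05. DESeq2 called 1 gene and limma voom 0. The Btg2 value moved with the libraries in the fit. Without the 3 featureCounts libraries it was -0.24 (SE 0.46), without female control 4 alone -0.51 (SE 0.44), and with the tool as a covariate -0.65 (SE 0.44). Leaving out a single HTSeq library moved it about as far as the covariate did, to -0.70 without male control 2 and -1.25 without male control 1, and halving the featureCounts counts gave -0.87. The counting tool and the individual libraries cannot be told apart here.

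**Figure D3:**
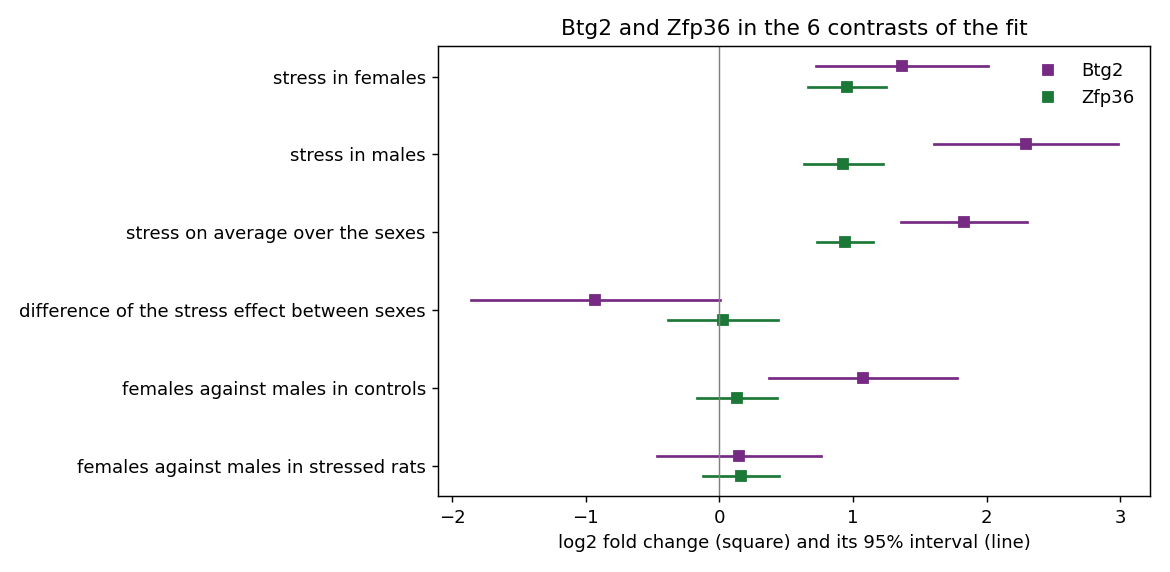
Log2 fold changes (squares) and 95% intervals (lines) of Btg2 and Zfp36 in the 6 contrasts of the fit to all 16 libraries. Stress values lie right of 0 for both genes in both sexes, as a description only, since the genes were chosen on these contrasts. Of the sex contrasts only Btg2 in controls has an interval that does not hold 0, from 0.37 to 1.78, before adjustment over all genes.

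The featureCounts libraries held the highest Btg2 level of the control females and of the stressed males, and the second lowest of the control males, at 0.484 CPM. In the HTSeq libraries alone Btg2 averaged 2.94 ± 0.48 CPM in 4 stressed females against 0.853 ± 0.17 CPM in 3 control females (SD). In males it averaged 2.27 ± 0.40 CPM in 3 stressed and 0.555 ± 0.34 CPM in 3 control libraries (SD). Its fold changes were then close in both sexes, at a log2 of 1.78 (SE 0.32) in females and 2.03 (SE 0.34) in males. The fitted difference of featureCounts from HTSeq libraries was 0.60 on the log2 scale for Btg2 (SE 0.26, edgeR adjusted p = 0.472) and 0.02 for Zfp36 (SE 0.13, edgeR adjusted p = 0.976). Among females featureCounts was used for a control library only, so the tool and the condition are not balanced there.

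**Figure D4:**
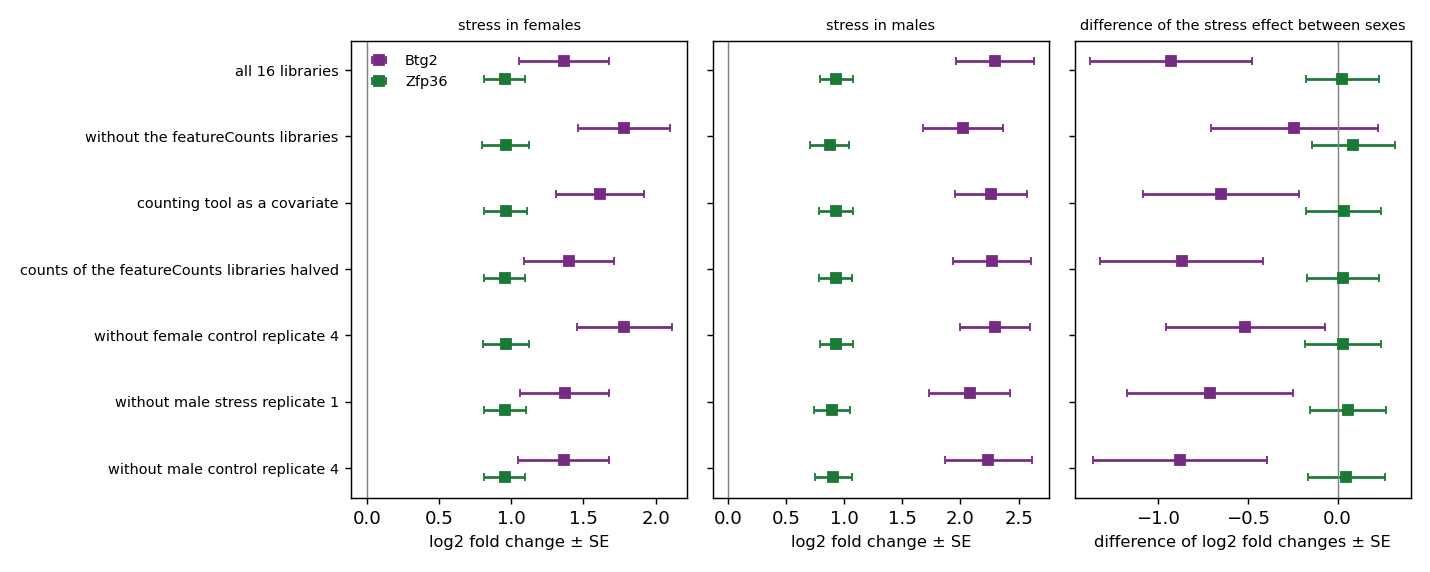
Log2 fold changes ± SE of Btg2 and Zfp36 with stress in females and males, and their difference, female minus male, with all 16 libraries and with the featureCounts libraries left out together or singly, their counts halved, or the tool modelled. The difference for Btg2 moves between -0.93 with all libraries and -0.24 without the featureCounts libraries, while the Zfp36 values barely move.

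The mitochondrial share averaged 74.5% ± 3.5 in stressed and 73.6% ± 6.8 in control females, and among males 78.2% ± 3.0 with stress and 74.9% ± 3.1 in controls (SD, n = 4 each). With mitochondrial genes left out of the library size the log2 fold changes were 1.36 and 2.30 for Btg2 in females and males, and 0.95 and 0.93 for Zfp36, within 0.01 of those above. Scaled this way, Btg2 in females had 12.0 ± 2.0 nuclear CPM with stress and 4.47 ± 2.0 in controls. In males it had 10.8 ± 3.2 nuclear CPM with stress and 2.20 ± 1.1 in controls (SD, n = 4 each).

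Within groups the genes did not track each other beyond what permutation gives. After the group means were removed, the log2 levels of Btg2 and Zfp36 in the 16 libraries had a Pearson r of 0.39 (exact permutation within groups, two-sided p = 0.237, adjusted p = 0.712 over 3 relations) and a Spearman rho of 0.50 (exact permutation p = 0.0781, adjusted p = 0.234). Without the 2 libraries farthest out for Btg2, male controls 1 and 2, r was 0.40. Leaving out male control 2 alone, the library with 7 counts, gave 0.20, and leaving out male control 1 gave 0.55. In the HTSeq libraries r was 0.39. The mitochondrial share had an r of -0.17 with Btg2 (exact permutation p = 0.597, adjusted p = 0.791) and of -0.067 with Zfp36 (exact permutation p = 0.791, adjusted p = 0.791), and Spearman rho was 0.035 (exact permutation p = 0.908, adjusted p = 0.908) and -0.097 (exact permutation p = 0.734, adjusted p = 0.908). Without the 2 libraries farthest out on each gene these r values were -0.30 and -0.033.

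**Figure D5:**
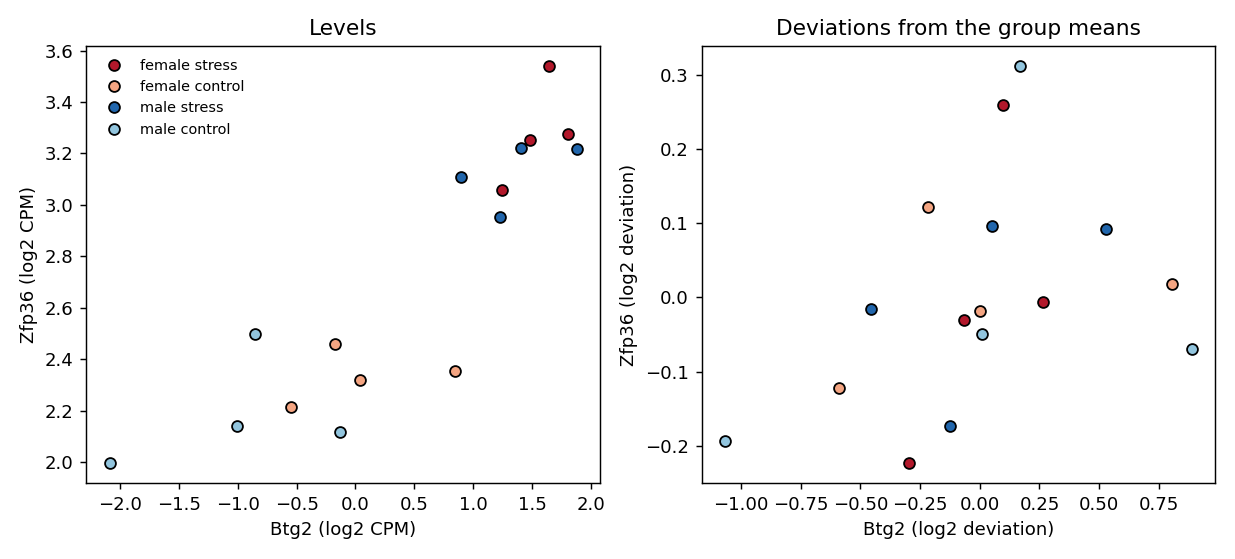
Zfp36 against Btg2 in the 16 libraries, as log2 CPM (left) and as deviations from the group means (right), coloured by group. On the left the stressed and control libraries form separate clouds, and on the right the remaining relation is loose, with r at 0.39.

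Across all 16 libraries, group differences included, likeness was ranked among the 11097 genes that averaged 1 CPM or more. Zfp36 had the log2 level most like that of Btg2, with a Pearson r of 0.886, and ENSRNOG00000003977 followed closely at 0.885. For Zfp36 the most alike was ENSRNOG00000003977, with an r of 0.96, and Btg2 came at rank 5. That gene, on chromosome 10 from 16970626 to 16973418, averaged 26.5 ± 1.7 CPM in stressed females against 6.59 ± 1.8 CPM in control females. In males it averaged 20.3 ± 2.6 CPM with stress against 5.31 ± 0.56 CPM in controls (SD, n = 4 each). These values of r describe libraries that fall into stressed and control sets and share their scaling. Both members were chosen for their difference with stress, so a high r between them follows in part from that choice. On deviations from the group means the order changed, with Zfp36 at rank 863 for Btg2 and Btg2 at rank 694 for Zfp36. There the most alike was a gene on chromosome X, from 31852323 to 31968152, for Btg2 (r = 0.83), and one on chromosome 8, from 22291445 to 22301331, for Zfp36 (r = 0.81). Each of these r values is the highest among the 11097 genes and was not tested.

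The nearest tested genes on either side of the pair were not called. On chromosome 13 the gene at 50873605 to 50885563 had an average log2 fold change with stress of 0.34 (SE 0.30, edgeR adjusted p = 0.753). Its values in the sexes had opposite signs, 1.00 in females (SE 0.44, edgeR adjusted p = 0.755) and -0.32 in males (SE 0.42, edgeR adjusted p = 0.914). The one at 51022681 to 51030802 had 0.14 (SE 0.095, edgeR adjusted p = 0.644). On chromosome 1 the gene 6988 bases before Zfp36, at 85368288 to 85373099, had -0.22 (SE 0.18, edgeR adjusted p = 0.725). The gene 3900 bases beyond it, at 85386470 to 85399699, had 0.25 (SE 0.23, edgeR adjusted p = 0.772). A neighbour that misses the threshold is not shown to be unchanged.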

How the data were processed

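The authors deposited unnormalised counts for each Ensembl gene. Rnor_6.0, STAR 2.5.2a, HTSeq, bedtools, limma and DESeq are named in the submitters' processing notes. The file headers of 3 libraries name featureCounts 1.6.1 and an Ensembl release 92 annotation, and their command holds no paired-end or strand option. The other 13 have the layout of HTSeq, with a strand setting not given in the sources used here. Closing lines without a gene made up 44.9% to 64.7% of the entries in those 13 and were left out throughout. Per the labels' protocols, total RNA was amplified with a NuGen Ovation kit and sequenced as paired ends.

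Counts were fitted with edgeR 4.0.16 (R 4.3.3), using TMM factors, filterByExpr, which left 14241 genes, and a robust quasi-likelihood fit with 1 mean for each of the 4 groups. Adjusted p-values are Benjamini-Hochberg values over all genes tested, and SE is that of a log2 fold change. Log2 levels in correlations used a pseudocount of 0.5 counts. The fit and the correlation test were tested on simulated data. DESeq2 1.42.0 and limma 3.58.1 served as alternatives.

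Groups came from titles and characteristics. Replicates were numbered in accession order and pair no samples, and for stressed females the titles and the count files number the libraries differently. The labels do not say whether libraries came from separate rats, so a p-value reflects only how much libraries vary, which may be technical. Same-group pairs differed by 6.88 to 34.0 times the sampling noise (chi-square per degree of freedom), so none were merged as copies of 1 library, which does not show that they are independent samples. The members, gene lists and tests were chosen with earlier results of these data known. The gene lists and cell type markers (BTG and ZFP36 families, decay machinery, other AU-rich element binders, bound messages, early, glucocorticoid and p53 genes) could not be applied, because 0 identifiers matched the RefSeq table of 47357 genes. The names Btg2 and Zfp36 came with the choice of genes. Beyond them, the gene most alike each member was to be named, by identifier or position.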

Additional observations from a re-analysis of the deposited data

Results flagged for a closer look

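None of the Btg2 and Zfp36 levels, nor their count ratio, had a library set apart from the other 3 of its group by the gap criterion used, Dixon's test at the 95% level. Depth did. Female control 4 had 22.6 M nuclear counts, against 5.96 to 7.49 M in the other control females. Male control 4 had 67.0 M counts in total, against 30.0 to 34.9 M in the other control males. Both were counted with featureCounts, mate by mate. In all 2 of 24 groups of 4 values stood out, where chance gives about 1 in 20.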

How the results depend on the processing

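Of 319 recomputed values for 13 results on the members, 309 kept their direction and their side of the p threshold. The p was the adjusted one, except that the 23 values of the within-group correlation used the unadjusted permutation p. The remaining 10 of the 319 concern 3 results. Btg2 with stress in females, not called in the reported fit, was called without a filter on low counts (log2 fold change 1.36), with DESeq2 (1.38), without the featureCounts libraries (1.78), with the counting tool as a covariate (1.61) and without female control 4 (1.78). Leaving out each library gave 1.20 to 1.78. Zfp36 with stress in males was not called without the featureCounts libraries (0.87), and it was called whichever single library was left out. Since the 2 genes were chosen on the stress contrasts, these calls are a description and lend no support to a stress effect. The difference of the Zfp36 stress effect between the sexes, near 0, took either sign when single libraries were left out, from -0.087 to 0.097. The causes were not tested.

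Called genes moved over 1.5 times in some fits. Without the filter edgeR called 105, 88 and 207 genes for stress in females, in males and on average, against 9, 17 and 48, and 36, 54 and 105 for the difference between the sexes and for the sexes in controls and in stressed rats, against 0, 16 and 13. DESeq2 called 27, 31 and 103 for stress. Without the featureCounts libraries 14, 5 and 29 genes were called for stress, and 10 for the sexes in controls. In males limma voom called 11 genes and a fit of the males alone 27. Leaving out single libraries gave 7 to 21 in males and 28 to 56 on average. No paired analysis was possible because the labels give the groups no shared replicate numbers. Depth limits the precision of Btg2 in control males, where it had 7 to 30 counts.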
